A study of Arabidopsis thaliana with 15 samples.

Results

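The 100 longest expressed transcripts of Arabidopsis seedlings were compared between polysome-bound and total RNA and between seedlings with and without light. Each library lists 33323 genes. Of these, 18348 had a mean of at least 100 reads over all 15 libraries, with 1 locus left out by the rule, and the 100 with the greatest listed length were taken, from 6.173 kb (GSL12) to 16.347 kb (AT1G67120). The other 18248 kept genes served for comparison. The members were chosen by listed length and by mean reads over all libraries, so neither is a finding. Listed length is the deposited length per gene in kilobases.

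All seedlings were wild type Arabidopsis thaliana Col-0, stratified for 4 days and grown in darkness for 4 days at 22 °C, and only the aerial part was harvested. L4h seedlings then had 4 h under 100 µmol of white light per square metre per second, D4h seedlings had 4 h more of darkness, and Dark seedlings had neither. Polysome-bound RNA of L4h and Dark and total RNA of L4h, D4h and Dark were sequenced, with 3 libraries in each of the 5 groups and no polysome-bound D4h group. The labels number 3 replicates where the series text speaks of 2, and they do not say whether replicates were separate cultures, so p-values measure the spread between these libraries, which may be technical. The labels describe the same RNA extraction for both kinds of RNA. How polysomes were isolated is not given in the sources used here.

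An mRNA in translation carries several ribosomes at once, and such polysomes can be separated from free mRNA by their mass. The ratio of polysome-bound to total RNA then gives the relative share of a transcript on polysomes, relative to the other transcripts of the same libraries. In yeast, long mRNAs are known to carry fewer ribosomes per unit length and to start translation less often than short ones. Illumination of dark-grown seedlings is known to raise translation of many mRNAs within hours.

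Between 60.8 M and 100.9 M reads per library fell in listed genes. Levels are CPM (read counts as a share of the library) after scaling by library size and composition unless given as RPKM, the deposited reads per kilobase scaled to the library total. Of the markers of other organs, the 4 root markers (EXPA7, EXPA18, COBL9 and RHD6) summed to at most 1.74 CPM in any library. The 4 leaf and cotyledon markers (RBCS1A, CAB1, LHCA1 and PSBO1) summed to 36069, 12321 and 10554 CPM in L4h polysome-bound RNA and 8196, 1560 and 1497 CPM in Dark polysome-bound RNA. In total RNA they summed to 12974, 7800 and 12453 CPM in L4h, 14653, 1861 and 1698 CPM in D4h, and 2153, 1313 and 788 CPM in Dark. Replicate 1 therefore stood apart in several groups, and the sum in D4h replicate 1 reached that of L4h total RNA. Of the 4 genes, LHCA1 did not reach it. LHCA1 had at most 468 CPM in any D4h library, against at least 1168 CPM in L4h total RNA. D4h replicates 2 and 3 were nearly alike, with a median difference of 0.068 log2 units per gene, against 0.141 to 0.612 for every other pair of one group. They differed by more than sampling noise (a median chi-square of 1.24 per gene) and were kept as separate libraries.

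Long transcripts were under-represented in polysome-bound RNA, relative to total RNA, in light and in darkness. In L4h, 81 of the 100 members were lower in polysome-bound than in total RNA, 0 were higher and 19 did not pass the test (edgeR, p under 0.05 after Benjamini-Hochberg adjustment over 21924 genes). Of all genes tested, 9.05% were lower and 11.6% higher. In Dark, 74 members were lower, 0 higher and 26 did not pass, against 9.28% of all genes lower and 10.5% higher. At an unadjusted p under 0.05, edgeR gave 92 lower and 0 higher members in L4h, against 15.9% and 18.3% of all genes tested, and 88 lower and 0 higher in Dark, against 16.5% and 17.8%. DESeq2 gave 87 lower members in L4h and 85 in Dark, against 12.99% and 13.3% of all genes, and 0 higher in either. The polysome-bound to total difference of the members had a median of −1.36 log2 units in L4h (quartiles −1.57 and −0.996, range −2.45 to 0.45), against 0.03 for the other kept genes. In Dark the median was −1.23 (quartiles −1.55 and −0.93, range −2.59 to 0.48), against 0.03 for the other kept genes. The median member thus lay 2.61-fold below the median of the other genes in L4h and 2.40-fold below it in Dark.

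The same members were mostly called in both conditions: 73 were lower in L4h and in Dark, 8 in L4h alone, 1 in Dark alone and 18 in neither. A call in one condition alone does not show a difference between the conditions, which is tested further on. All 3 polysome-bound libraries lay below all 3 total RNA libraries for 91 members in L4h and for 88 in Dark, a separation that 20.4% and 21.6% of the other kept genes also showed, against 9.05% and 9.28% of all tested genes called lower. The difference was below 0 in every same-numbered pair of libraries for 96 members in L4h and 94 in Dark. This was not counted for the other kept genes, of which 48.5% lay below 0 in the fit in each condition. Within the pairs, the members' median minus that of the other genes was −1.70, −1.05 and −1.35 for replicates 1, 2 and 3 in L4h and −1.52, −0.97 and −1.41 in Dark. The direction was therefore the same in each of the 6 pairs, with the smallest size in replicate 2 of both conditions.

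The share of reads shows the same depletion library by library. The members took 0.213%, 0.491% and 0.397% of listed reads in L4h polysome-bound RNA and 0.343%, 0.607% and 0.427% in Dark polysome-bound RNA. In total RNA they took 0.880%, 1.04% and 1.05% in L4h, 1.03%, 1.23% and 1.22% in D4h, and 1.09%, 1.18% and 1.12% in Dark. Every polysome-bound library lay below every total RNA library. In the polysome-bound libraries the listed length averaged over reads was 1.42 to 1.72 kb, against 1.91 to 2.03 kb in total RNA, so the reads of polysome-bound libraries came from shorter genes in general. RNA integrity was not analysed here, and its part in these ratios was not tested.

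**Figure D1:**
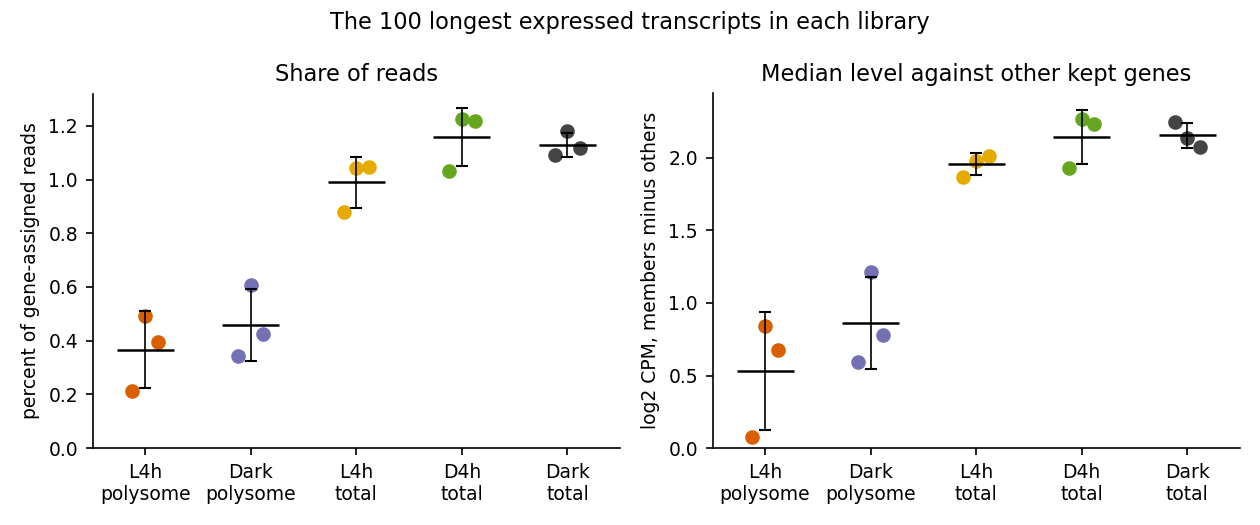
Share of listed reads taken by the 100 members (percent, left) and their median log2 CPM minus that of the other kept genes (right) in each library. Points are the 3 libraries of a group, bars are means and whiskers SD (n = 3); every polysome-bound library lies below every total RNA library in both panels.

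The counts of genes called higher and lower over the whole table depend on the scaling, while the direction for the long transcripts does not. With edgeR's scaling, 56.2% of all called genes were higher in polysome-bound RNA in L4h and 53.1% in Dark. With the deposited RPKM in a limma fit of log2(RPKM + 1), these shares were 33.6% and 36.2%, and the median of all tested genes moved to −0.16 in L4h and −0.14 in Dark. The difference between the members' median and that of the other genes on that scale was −0.95 in L4h and −0.97 in Dark, which understates the change of genes with low RPKM.

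Depletion followed length along the whole range of transcripts and not at the top alone. The kept genes were put in 10 classes of equal size by length. In L4h the median polysome-bound to total difference was 1.41 log2 units in the shortest class (up to 0.77 kb), 0.10 in the fifth (1.39 to 1.57 kb) and −0.87 in the longest (2.91 kb and more). In Dark it was 1.28, 0.10 and −0.77 in the same classes. Of the shortest class, 54.4% were higher in L4h and 49.9% in Dark, and of the longest, 49.97% were lower in L4h and 43.8% in Dark. The medians fell from class to class without exception in both conditions.

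Across the kept genes, length and the polysome-bound to total difference had a Spearman rho of −0.74 in L4h and −0.67 in Dark (18346 genes with a value). The genes share their libraries, so this is a description of these libraries. Among 3 classes of 6116 genes by mean reads, low, middle and high, rho was −0.66, −0.78 and −0.82 in L4h and −0.59, −0.71 and −0.75 in Dark. Length and level in a library had a rho of −0.06 to 0.11 in the polysome-bound libraries and 0.24 to 0.30 in the total RNA libraries, so the relation of reads with length that total RNA showed was nearly absent on polysomes.

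**Figure D2:**
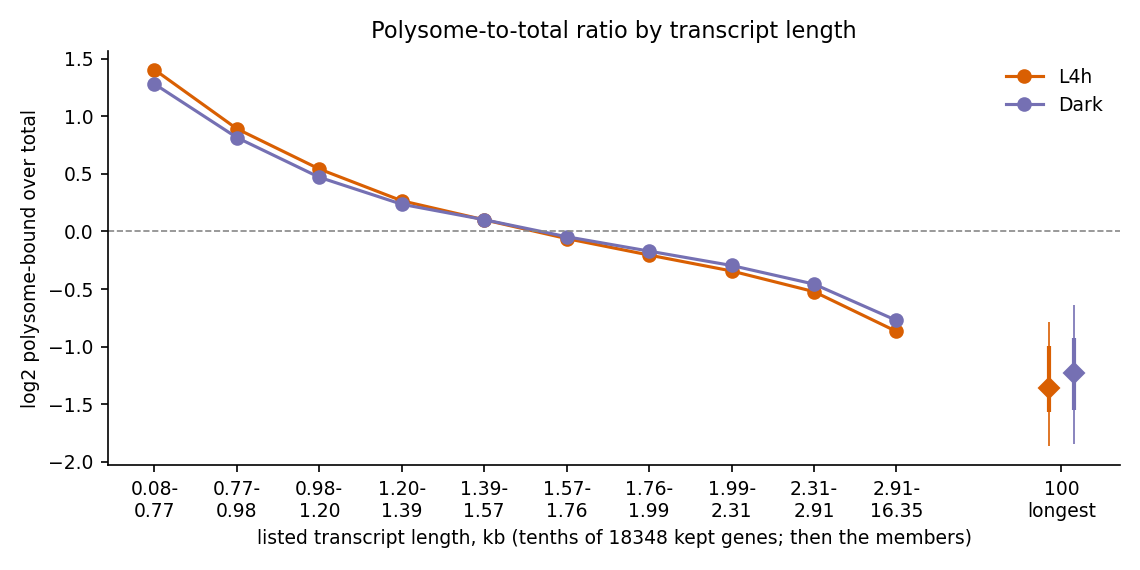
Log2 difference of polysome-bound against total RNA by class of listed transcript length (kb, classes drawn at equal spacing, with the members at the right). Lines join the medians of 10 classes of equal size over the kept genes for L4h and Dark, which run from 1.41 to −0.87 in L4h, and diamonds mark the median of the 100 members (−1.36 in L4h, −1.23 in Dark) with quartiles (thick bars) and the 10th to 90th percentiles (thin bars).

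Just below the members the depletion was smaller. The 100 next longest genes (5.22 to 6.15 kb) had medians of −1.12 in L4h and −1.06 in Dark, with 63 and 60 of them lower. At length ranks 201 to 500 the medians were −1.01 and −0.91, and at ranks 1001 to 1835 −0.71 and −0.62. Inside the length threshold, GSL8 (6.176 kb) had −1.79 in L4h and −1.60 in Dark, and GSL12 (6.173 kb) had −1.69 and −1.32. Both encode callose synthases, which make the glucan of plasmodesmata and cell plates. Just outside it, WAVE5 (6.153 kb) had −0.61 and −0.42, and KAK (6.139 kb), a ubiquitin ligase that limits trichome branching, had −1.12 and −1.11.

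Among the members themselves, no such gradient was seen. Ranks 1 to 25 had a median of −1.16 in L4h and −1.27 in Dark, ranks 26 to 50 −1.42 and −1.29, ranks 51 to 75 −1.25 and −1.13, and ranks 76 to 100 −1.44 and −1.37. Spearman rho between length and the difference was 0.11 in L4h and 0.04 in Dark (100 members). It was 0.27 and 0.36 for GC content of the gene model, −0.24 and −0.17 for the number of exons, and 0.13 and 0.16 for mean reads. These are weak relations over genes of the same libraries. Members kept their order between conditions: the L4h and Dark differences had a rho of 0.91 over the 100 members and 0.92 over the other kept genes.

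Exon number and coding length go with transcript length, and no comparison at matched length was made. A median member had 21.5 annotated exons and a coding sequence of 6591 bases, against 5 exons and 1140 bases for the other kept genes. The coding sequence filled a median of 93.4% of the annotated transcript closest to the listed length, against 70.3%. GC content was 42.5% against 41.6%. Annotation and coordinates are those of RefSeq for TAIR10.1, while the submitters' processing notes name TAIR 10, and the listed length was within 5% of an annotated transcript for 91 members. By annotation, 92 members are protein-coding and 8 are pseudogenes, 8.0% against 0.893% of the other kept genes. They lie on all 5 chromosomes, with 33, 18, 18, 16 and 15 on chromosomes 1 to 5. Coding members with 31 or more exons (31 genes) had medians of −1.46 in L4h and −1.37 in Dark. The 25 with 2 to 15 exons had −1.37 and −1.25, and the 36 between had −1.20 and −1.11.

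Per unit length, the members were not abundant. Their mean RPKM over all libraries had a median of 7.53, against 11.9 for the other kept genes, and 28 of the 100 lay above the median of all kept genes. The minimum of 100 reads admits long genes at a lower RPKM than short ones. The rule itself therefore bears on this comparison, and its part was not tested. The highest were AT5G40450 (86.9 RPKM), annotated as an A-kinase anchor-like protein, and GLT1 (71.5 RPKM), the NADH-dependent glutamate synthase of ammonium assimilation. ACC1 (56.9 RPKM), the acetyl-CoA carboxylase that makes malonyl-CoA outside plastids, and CSI1 (36.6 RPKM), which links cellulose synthase complexes to microtubules, followed. The lowest were AT3G28770 (0.216 RPKM), a putative transmembrane protein, and AT5G35935 (0.315 RPKM). Next came TIL2 (0.328 RPKM), a catalytic subunit gene of DNA polymerase epsilon. AT3G28770 (115 mean reads) and AT5G35935 (177 mean reads) were nearest to the minimum of 100 reads.

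All 10 longest members were lower in polysome-bound RNA in both conditions. AT1G67120, the longest (chromosome 1, 25069428 to 25095638, minus strand, 75 exons), encodes a midasin-like protein, known in yeast as a giant ATPase of large ribosomal subunit assembly. It had 4.58, 10.8 and 8.24 CPM in L4h polysome-bound RNA, against 37.0, 25.4 and 16.3 CPM in L4h total RNA. In Dark it had 3.58, 8.28 and 6.02 CPM in polysome-bound RNA, against 27.7, 18.7 and 18.0 CPM in total RNA. The groups did not overlap in either condition, and AT1G67120 was 3.33-fold lower in L4h (log2 change −1.74, SE 0.41, edgeR adjusted p = 0.0141) and 3.60-fold lower in Dark (−1.85, SE 0.41, edgeR adjusted p = 0.0120).

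BIG, the second longest (15.465 kb, chromosome 3, 430877 to 448680, minus strand, 14 exons), encodes a very large protein needed for auxin transport and grouped here with ubiquitin ligases. It had 52.7, 111 and 133 CPM in L4h polysome-bound RNA, against 234, 224 and 209 CPM in L4h total RNA. In Dark it had 104, 144 and 152 CPM in polysome-bound RNA, against 301, 273 and 237 CPM in total RNA. All polysome-bound libraries were below all total RNA libraries, and BIG was 2.24-fold lower in L4h (log2 change −1.16, SE 0.31, edgeR adjusted p = 0.0218) and 2.03-fold lower in Dark (−1.02, SE 0.31, edgeR adjusted p = 0.0378).

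The other 8 of these longest members had log2 changes of −0.91 to −1.75 in L4h and −0.77 to −1.89 in Dark. The largest belonged to ATM (11.880 kb), a kinase that signals DNA double-strand breaks. ATM had 6.77, 11.4 and 6.91 CPM in L4h polysome-bound RNA, against 21.8, 29.0 and 33.5 CPM in L4h total RNA, with no overlap (log2 change −1.75, SE 0.32, edgeR adjusted p = 0.0045). The smallest belonged to AT4G36080 (12.056 kb), a protein related to the TRA1 subunit of histone acetyltransferase complexes in yeast. It had 17.8, 27.1 and 26.8 CPM in L4h polysome-bound RNA, against 46.7, 44.8 and 42.8 CPM in L4h total RNA (log2 change −0.91, SE 0.20, edgeR adjusted p = 0.0111). Between them lay AT5G23110 (14.283 kb), annotated as a C3HC4 zinc finger protein, AT4G17140 (13.366 kb), with a pleckstrin homology domain, AT1G48090 (12.995 kb), annotated as lipid-binding, UPL1 (12.525 kb), a ubiquitin ligase, AT2G17930 (11.744 kb), the second TRA1-related gene, and AT4G02660 (11.374 kb), a BEACH domain protein.

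The roles below were assigned from the annotation after values had been seen, and no group of genes was tested as a set. Of 16 members for transcription and chromatin, 14 were lower in L4h (median −1.01) and 13 in Dark (median −0.92). They include SYD and BRM, ATPases of SWI/SNF remodelling complexes, with −1.05 and −0.95 in L4h. SDG2, a histone H3 lysine methyltransferase, had the largest fall of this group in L4h (−1.75) and in Dark (−1.81). GCT and CCT, subunits of the Mediator kinase module, had −1.14 and −0.72 in L4h, and NRPD1B, the largest subunit of RNA polymerase V, had −1.47. Of these 6, CCT (−0.65 in Dark, edgeR adjusted p = 0.0566) did not pass in Dark.

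Of 7 members for RNA processing, 6 were lower in L4h (median −1.56) and 5 in Dark (median −1.32). DCL1 (6.254 kb, chromosome 1, 23121 to 31227, plus strand), the nuclease that cuts microRNAs from their precursors, had 12.0, 22.7 and 12.1 CPM in L4h polysome-bound RNA, against 62.0, 63.8 and 62.4 CPM in L4h total RNA. Its Dark levels were 14.2, 25.7 and 10.3 CPM in polysome-bound RNA, against 85.0, 83.7 and 74.8 CPM in total RNA. The groups were far apart, with DCL1 4.02-fold lower in L4h (log2 change −2.01, SE 0.34, edgeR adjusted p = 0.0037) and 4.86-fold lower in Dark (−2.28, SE 0.34, edgeR adjusted p = 0.0032). Part of the gene is overlapped by other annotated genes over at most 9.72% of its span.

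Of 4 ubiquitin ligases, all were lower in both conditions: BIG, UPL1, UPL2 and PRT6, which marks proteins by their amino-terminal residue. UPL1 and UPL2 are close relatives, with −1.51 and −1.56 in L4h and −1.45 and −1.54 in Dark. PRT6 had 29.5, 53.0 and 37.4 CPM in L4h polysome-bound RNA, against 139, 125 and 115 CPM in L4h total RNA. It was 3.16-fold lower there (log2 change −1.66, SE 0.26, edgeR adjusted p = 0.0029), with no overlap.

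Both kinases of the TOR and lipid kinase group were lower in both conditions. TOR (8.007 kb, chromosome 1, 18522248 to 18539995, minus strand) couples growth to nutrients and light, partly by raising translation. It had 19.1, 40.6 and 26.6 CPM in L4h polysome-bound RNA, against 100.2, 99.4 and 95.9 CPM in L4h total RNA. In Dark, TOR had 31.1, 56.0 and 31.4 CPM in polysome-bound RNA, against 148, 130.0 and 129 CPM in total RNA. Every polysome-bound library was below every total RNA library, by 3.42-fold in L4h (log2 change −1.78, SE 0.30, edgeR adjusted p = 0.0035) and 3.44-fold in Dark (−1.78, SE 0.30, edgeR adjusted p = 0.0042). ATPI4K ALPHA, a phosphatidylinositol 4-kinase, had −1.53 in L4h and −1.56 in Dark.

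Of 5 members for ribosome assembly and translation control, 4 were lower in each condition. ILA, related to the translation regulator GCN1 of yeast, had 18.4, 28.1 and 20.4 CPM in L4h polysome-bound RNA, against 90.8, 81.4 and 99.7 CPM in L4h total RNA. It had the lowest adjusted p of the members in both conditions, being 4.06-fold lower in L4h (log2 change −2.02, SE 0.23, edgeR adjusted p = 0.0018) and 3.39-fold lower in Dark (−1.76, SE 0.23, edgeR adjusted p = 0.0023). The exception was AT1G72270, described below.

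Of 12 members for membrane traffic and lipid transfer, 10 were lower in L4h and 10 in Dark (medians −1.41 and −1.41). GRV2, needed for sorting to the vacuole, had −1.24 in L4h and −1.15 in Dark. The 2 that passed in neither condition were SPI, a BEACH domain protein of cell shape (−0.96 in L4h, edgeR adjusted p = 0.128), and AT4G39420, a spatacsin-like protein (−0.66 in L4h, edgeR adjusted p = 0.0968).

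Of 12 members for the cytoskeleton and cell wall, 9 were lower in L4h (median −1.41) and 7 in Dark (median −1.33). They include the kinesins POK1 and POK2 that orient the division plane, with −1.38 and −1.96 in L4h, and the microtubule protein MOR1, with −1.44. The callose synthases GSL8 and GSL12 were lower in both conditions. The third, CALS1, had −1.12 in L4h (edgeR adjusted p = 0.0768) and −1.21 in Dark (edgeR adjusted p = 0.0601).

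Of 7 members for DNA replication, repair and chromosome separation, 6 were lower in L4h (median −1.45) and 4 in Dark (median −1.15). TIL1, the main catalytic subunit gene of DNA polymerase epsilon, had −2.18 in L4h and −2.12 in Dark. The damage kinase ATR had 3.01, 3.26 and 3.55 CPM in L4h polysome-bound RNA, against 6.66, 4.96 and 7.06 CPM in L4h total RNA, and was 1.90-fold lower (log2 change −0.93, SE 0.21, edgeR adjusted p = 0.0124). Of 6 metabolic enzymes, transporters and channels, 5 were lower in L4h and 4 in Dark (medians −1.08 and −1.03), with −0.86 for ACC1 and −1.72 for its tandem relative ACC2 in L4h. ABCA1, a transporter of the ATP-binding cassette family, had −1.08, and NUA, the nuclear pore anchor of messenger RNA export, had −1.08. Of 19 members of other or unknown role, 17 were lower in L4h and 16 in Dark (medians −1.37 and −1.25).

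**Figure D3:**
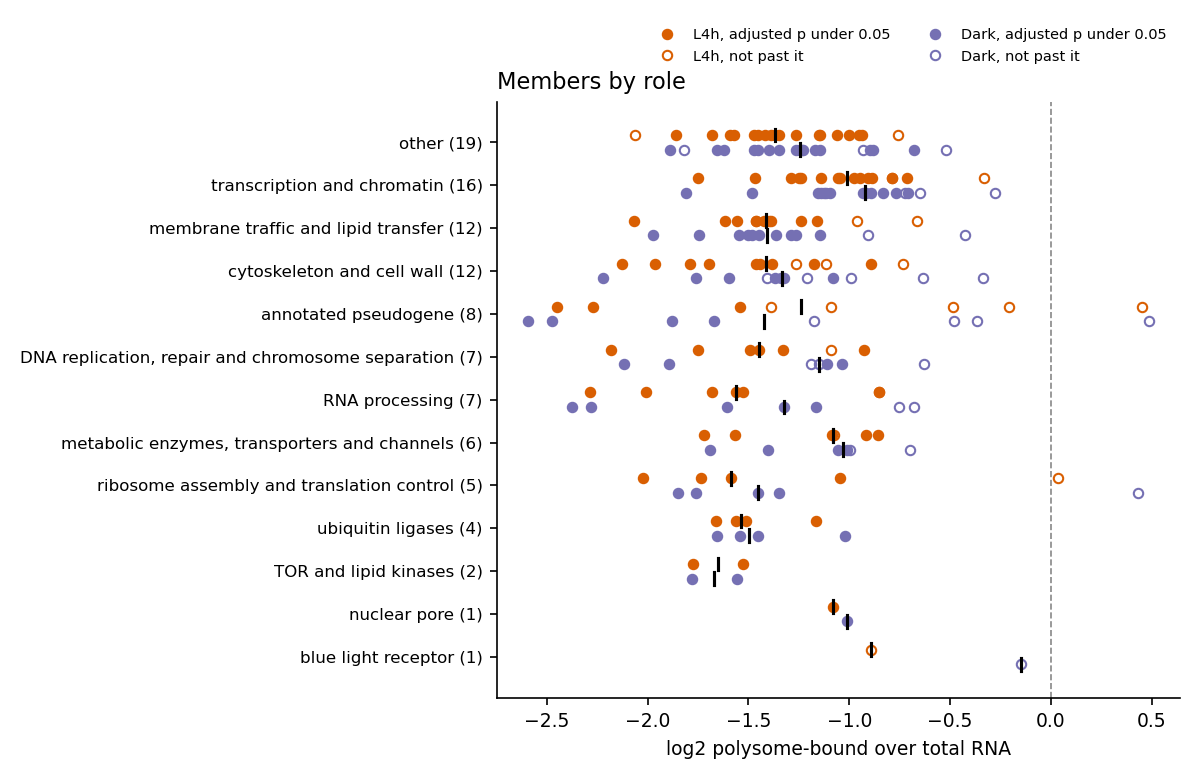
Log2 difference of polysome-bound against total RNA for each of the 100 members, by role, in L4h and Dark. Each point is a member, filled where the adjusted p was under 0.05, and ticks are medians; the medians of the roles with 4 or more members lie between −0.92 and −1.59.

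Genes of the same pathways outside the 100 longest were long transcripts too, with a median listed length of 3.89 to 5.87 kb in each of the 13 pathway lists that hold members. Of all kept genes at length ranks 201 to 500 (4.131 to 5.222 kb), 64.3% were lower on polysomes in L4h and 55.3% in Dark, and at ranks 501 to 1000 (3.5 to 4.129 kb) 57.2% and 46.8%. Whether any list differs from other genes of its length was not tested. Lists of 178 entries in 16 pathways, families and marker groups were drawn up with earlier results of these data known, of which 159 matched the annotation, 149 were kept genes and 39 were members. Among chromatin genes that were not members, 12 of 12 were lower in L4h and 11 in Dark, beside 8 of 8 members in each. Of myosins, kinesins and microtubule proteins, 9 of 10 non-members were lower in L4h and 8 in Dark, and of splicing and small RNA genes 9 of 10 and 8. Of ubiquitin ligases and proteases 5 of 6 non-members were lower in each condition, and of RNA polymerase and Mediator genes 5 of 7 in each.

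Among non-members of the other lists, those lower on polysomes were 5 of 7 callose synthases in L4h and 4 in Dark, 6 of 8 membrane traffic genes and 5, 4 of 9 genes of DNA methylation and repair in each, and 3 of 6 TOR and phosphoinositide kinases in each. Of ABC transporters 4 of 10 were lower in L4h and 3 in Dark, of large metabolic enzymes 2 of 6 and 0, of nuclear pore genes 3 of 3 and 1, and of ribosome assembly genes 3 of 3 and 1. Of 9 light and growth regulators, none of them a member, 2 were higher and 1 lower in L4h and 2 were higher and 2 lower in Dark. All 4 leaf markers missed the threshold, with medians of 0.87 in L4h and 1.38 in Dark, and no root marker was a kept gene.

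Relatives of near-equal length could differ widely. Of the 3 helicases of the U5 spliceosome particle, AT2G42270 (6.906 kb) had 11.3, 23.9 and 14.9 CPM in L4h polysome-bound RNA, against 56.1, 94.0 and 94.4 CPM in L4h total RNA. It was 4.88-fold lower (log2 change −2.29, SE 0.40, edgeR adjusted p = 0.0041), the largest fall of a protein-coding member. Its relative emb1507 (7.013 kb) was 1.81-fold lower (−0.85, SE 0.24, edgeR adjusted p = 0.0276), and AT5G61140 had −1.53. Whether the relatives differ from each other was not tested, and reads of close copies may be shared between them. Of the pre-mRNA splicing factors related to yeast PRP8, SUS2 had −1.56 in L4h and AT4G38780 −0.85 (edgeR adjusted p = 0.0881). AT1G44120, a relative of CSI1, had −2.13 in L4h and −2.22 in Dark, but a long noncoding RNA gene overlaps 87.1% of its span, and their reads cannot be told apart because strand is not given in the sources used here.

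The exceptions were few. The members above 0 in both conditions were AT1G47860 and AT1G72270, and neither passed the test. AT1G47860 (9.594 kb), an annotated pseudogene named here after its values were seen, had 21.9, 26.9 and 33.7 CPM in L4h polysome-bound RNA, against 14.5, 21.2 and 24.7 CPM in L4h total RNA. Its Dark levels were 30.0, 45.4 and 56.4 CPM in polysome-bound RNA, against 22.9, 37.9 and 33.2 CPM in total RNA. The groups overlapped in both conditions (log2 change 0.45, edgeR adjusted p = 0.314 in L4h, and 0.48, edgeR adjusted p = 0.276 in Dark). With the replicate number as a block in the same test, AT1G47860 was called higher in both, the 1 member called so, against 17.5% of all genes in L4h and 16.7% in Dark.

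AT1G72270 (8.762 kb, chromosome 1, 27199623 to 27209096, minus strand), annotated as a nucleolar pre-ribosomal-associated protein, had 11.8, 6.85 and 6.11 CPM in L4h polysome-bound RNA, against 10.1, 6.17 and 7.88 CPM in L4h total RNA, with overlap. In Dark it had 4.56, 3.16 and 3.65 CPM in polysome-bound RNA, against 3.07, 3.10 and 2.25 CPM in total RNA, without overlap. Its log2 changes were 0.03 (SE 0.30, edgeR adjusted p = 0.954) in L4h and 0.43 (SE 0.30, edgeR adjusted p = 0.348) in Dark. Its relative EMB2788 (7.880 kb) was lower in both, with −1.04 in L4h and −1.35 in Dark.

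PHOT2 (6.501 kb, chromosome 5, 23523825 to 23533111, plus strand), the blue light receptor phototropin 2, also missed the threshold. It had 194, 171 and 118 CPM in L4h polysome-bound RNA, against 299, 274 and 324 CPM in L4h total RNA, without overlap (log2 change −0.89, SE 0.36, edgeR adjusted p = 0.102). Dark levels of PHOT2 were 88.5, 46.7 and 32.7 CPM in polysome-bound RNA, against 82.7, 57.6 and 45.5 CPM in total RNA, with overlap (−0.15, SE 0.36, edgeR adjusted p = 0.813). PHOT2 has the lowest coding share of the coding members, 2748 coding bases or 42.2% of the annotated transcript closest to the listed length. The neighbour AT5G58150 overlaps 29.7% of its span and is listed at 0 reads in every library, and reads of the overlap cannot be told apart.

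CSI1 had 97.1, 154 and 201 CPM in L4h polysome-bound RNA, against 200.4, 245 and 307 CPM in L4h total RNA, with overlap (log2 change −0.73, SE 0.31, edgeR adjusted p = 0.117). The Dark value was −0.34 (edgeR adjusted p = 0.480). AT3G24870, a helicase and SANT domain protein named after its values were seen, had −0.33 in L4h and −0.28 in Dark (edgeR adjusted p = 0.233 and 0.326).

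The 8 annotated pseudogenes spanned the widest range. Of them 3 were lower in L4h and 4 in Dark (medians −1.24 and −1.42). AT3G25495 had the largest fall of the members, with 4.74, 8.96 and 2.36 CPM in L4h polysome-bound RNA, against 23.7, 38.8 and 25.2 CPM in L4h total RNA. It was 5.46-fold lower in L4h (log2 change −2.45, SE 0.62, edgeR adjusted p = 0.0181) and 6.02-fold lower in Dark (−2.59, SE 0.62, edgeR adjusted p = 0.0151). AT1G43886, overlapped by AT1G07203 over 71.5% of its span, had −2.27 and −2.47, while AT1G47860, overlapped by AT1G47845 over 22.6%, lay above 0. Among the 92 protein-coding members alone the medians were −1.36 in L4h and −1.23 in Dark. Of all members, 39 are overlapped by another annotated gene, 6 of them over at least 10% of their span.

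In no single member did the depletion differ detectably between L4h and Dark. The interaction term (L4h ratio over Dark ratio) was past the threshold in 0 of 100 members in either direction, as in 0.0% of all genes tested (edgeR adjusted p under 0.05). At an unadjusted p under 0.05 it was past in 0 members and in 114 of 21924 genes, and DESeq2 called 0 members. The L4h ratio lay below the Dark ratio for 66 members, beside 48.5% of the other kept genes and 69 of the 100 next longest. Over all kept genes the interaction fell with length (Spearman rho −0.20). Its median was 0.09 in the shortest of the 10 length classes and −0.07 in the longest. The median interaction of the members was −0.07 log2 units, against 0.01 for the other kept genes. The difference between the medians of members and other kept genes was −0.08. It ran from −0.22 without L4h polysome-bound replicate 2 to 0.10 without Dark polysome-bound replicate 2, so its sign rests on single libraries. PHOT2 had the lowest interaction of the members, −0.75.

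Few of the long transcripts were called changed by light in total RNA. In bulk samples, fewer cells of a type and less RNA per cell cannot be told apart. In L4h against Dark, 7 members were higher and 8 lower, against 12.3% of all tested genes higher and 10.0% lower (edgeR adjusted p under 0.05 over 21735 genes). The share of members called was thus not above that of all genes. At an unadjusted p under 0.05, edgeR gave 13 higher and 19 lower members, against 19.3% and 18.3% of all genes. DESeq2 called 12 higher and 16 lower, against 17.1% and 15.7% of all genes. In both, the share lower was near that of all genes and the share higher was below it. The median change was −0.16 for the members and −0.01 for the other kept genes, and 65 members lay below 0. For the protein-coding members alone it was −0.09. Within same-numbered pairs the members' median minus that of the others was −0.22, −0.10 and −0.03, and without the libraries numbered 1 the difference of the medians was −0.05, against −0.16 with them.

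PHOT2 rose most. It had 299, 274 and 324 CPM in L4h total RNA, against 82.7, 57.6 and 45.5 CPM in Dark total RNA, 4.86-fold higher (log2 change 2.28, SE 0.40, edgeR adjusted p = 0.0078). AT1G72270 followed, with 10.1, 6.17 and 7.88 CPM in L4h total RNA, against 3.07, 3.10 and 2.25 CPM in Dark total RNA, 2.89-fold higher (1.53, SE 0.29, edgeR adjusted p = 0.0104). GSL12 had 158, 152 and 197 CPM in L4h total RNA, against 101, 88.3 and 81.3 CPM in Dark total RNA, 1.89-fold higher (0.92, SE 0.20, edgeR adjusted p = 0.0151). In all 3 genes the groups did not overlap, and L4h was above Dark in each same-numbered pair. The other 4 that rose were AT4G32700, a DNA polymerase theta-like protein (0.69), AT3G06530, with ARM repeats (0.69), AT4G30150, related to a ribosome assembly factor of yeast (0.62), and DEK1, a calpain that sets epidermal fate (0.43).

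AT5G40450, the most abundant member per length, fell. It had 409, 434 and 489 CPM in L4h total RNA, against 1132, 1345 and 1398 CPM in Dark total RNA, 2.89-fold lower (log2 change −1.53, SE 0.32, edgeR adjusted p = 0.0140). AT5G49680, a relative of the cell expansion gene SAB, had 1.59, 2.39 and 2.40 CPM in L4h total RNA, against 3.48, 7.50 and 9.34 CPM in Dark total RNA, 3.17-fold lower (−1.66, SE 0.39, edgeR adjusted p = 0.0208). SAB itself had −0.03 (edgeR adjusted p = 0.893). Neither of the first 2 genes overlapped between groups, and replicate 1 was the lowest Dark library in both. The other 6 that fell were EMB2016 (−0.67), AT2G45540 (−0.62), the pseudogene AT3G60965 (−0.59), which AT3G60961 overlaps over its whole span, SPI (−0.56), AT2G25730 (−0.54) and AT2G46560 (−0.53).

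These calls depend on single libraries. Leaving out 1 of the 6 libraries at a time, 3 of the 15 calls held in every case, those of PHOT2, AT1G72270 and AT4G32700, and those of SPI and AT2G46560 held in none. The number of members called higher was 3 without Dark total replicate 2, and 11 without L4h total replicate 1. The number called lower was 0 without Dark total replicate 2, 1 without Dark total replicate 3 or L4h total replicate 2, 2 without L4h total replicate 3, 3 without L4h total replicate 1 and 6 without Dark total replicate 1. Over all genes these omissions gave 3.73% to 11.1% higher and 3.93% to 9.59% lower. With the replicate number as a block, 15 members were lower in place of 8, and 7 higher, against 12.4% of all genes lower and 15.2% higher. Without the libraries numbered 1, a choice made after seeing the data, 17 were higher and 25 lower, against 24.0% and 24.2% of all genes. In both settings the share of members lower was near that of all genes and the share higher was below it.

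On polysomes, 2 members fell in L4h against Dark and 0 rose, against 4.94% and 5.36% of all tested genes lower and higher (edgeR adjusted p under 0.05 over 20975 genes). At an unadjusted p under 0.05, 7 were lower and 2 higher, against 11.8% and 13.4% of all genes. DESeq2 called 5 lower and 2 higher, against 8.87% and 10.2% of all genes. The median change was −0.18 for the members and −0.01 for the other kept genes, and the pairs gave differences of −0.38, −0.17 and −0.01. With the replicate number as a block, 6 members were higher and 24 lower, against 21.9% of all genes higher and 21.4% lower. The samples of a number deviated together, and the block raised the counts over all genes as well as those of the members. The share of members lower was thus near that of all genes, and the share higher was below it. Those higher were AT1G72270, G2484-1, AT4G30150, GSL12, PHOT2 and AT3G30875.

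The first of the 2 was EMB2016, a gene needed in the embryo. It had 50.7, 52.1 and 37.1 CPM in L4h polysome-bound RNA, against 101, 112 and 88.5 CPM in Dark polysome-bound RNA, without overlap. It was 2.21-fold lower (log2 change −1.15, SE 0.23, edgeR adjusted p = 0.0244), and in total RNA it was 1.59-fold lower (−0.67, SE 0.18, edgeR adjusted p = 0.0328). The second was TIL2, the sparse relative of TIL1. It had 0.162, 0.0897 and 0.280 CPM in L4h polysome-bound RNA, against 0.987, 2.53 and 1.44 CPM in Dark polysome-bound RNA, without overlap (−3.23, SE 0.61, edgeR adjusted p = 0.0205). In total RNA TIL2 had 0.0582, 0.295 and 0.797 CPM in L4h, against 0.319, 4.95 and 5.71 CPM in Dark, with overlap (−3.26, SE 1.15, edgeR adjusted p = 0.0747). Its mean was 0.383 CPM in L4h total RNA, against 3.66 in Dark and 4.15 in D4h. TIL2 thus met the minimum of 100 mean reads mainly through dark libraries, so its fall in light is not independent of its selection. In all, 4 members had a mean under 100 reads in at least 1 group. Neither polysome call held with each of the 6 libraries left out in turn. Without Dark polysome-bound replicate 2, 0 members were lower, against 1.92% of all genes.

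Several members that rose or fell in total RNA had changes of the same sign on polysomes that missed the threshold. PHOT2 had a log2 change of 1.49 on polysomes (edgeR adjusted p = 0.0688), AT1G72270 1.08 (edgeR adjusted p = 0.0904) and GSL12 0.50 (edgeR adjusted p = 0.293). AT5G40450 had 159.9, 277 and 352 CPM in L4h polysome-bound RNA, against 444, 819.5 and 769.5 CPM in Dark polysome-bound RNA, without overlap (−1.39, edgeR adjusted p = 0.0868). With the replicate number as a block, these 4 genes passed on polysomes.

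**Figure D4:**
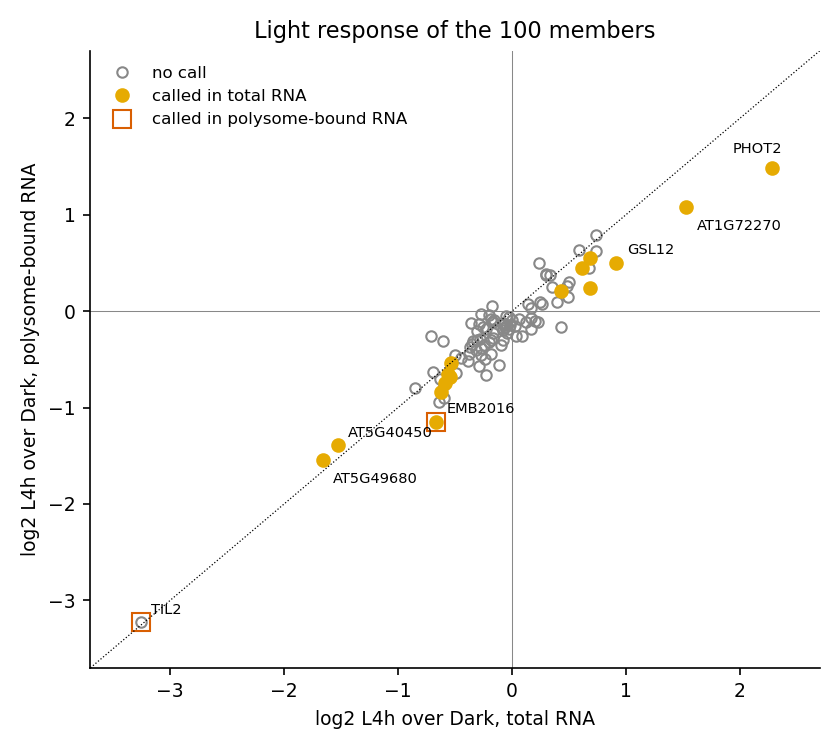
Log2 change in L4h against Dark of the 100 members in total RNA (horizontal axis) and polysome-bound RNA (vertical axis); the dotted line marks equal change. PHOT2 lies at 2.28 and 1.49, AT5G40450 at −1.53 and −1.39 and TIL2 at −3.26 and −3.23.

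Against D4h, the dark control of the same age, 4 members were higher in L4h total RNA and 6 lower, beside 6.74% and 7.3% of all tested genes. This comparison and that with Dark share the L4h total RNA libraries. PHOT2 had 299, 274 and 324 CPM in L4h, against 188, 77.2 and 73.1 CPM in D4h (log2 change 1.42, SE 0.39, edgeR adjusted p = 0.0469). AT1G72270 had 10.1, 6.17 and 7.88 CPM in L4h, against 4.47, 2.90 and 2.54 CPM in D4h (1.30, SE 0.29, edgeR adjusted p = 0.0220). AT4G30150 had 19.0, 17.3 and 14.3 CPM in L4h, against 8.80, 9.91 and 10.0 CPM in D4h (0.84, SE 0.15, edgeR adjusted p = 0.0083). The groups did not overlap in any of them, and PHOT2 was highest among D4h libraries in replicate 1. AT3G06530 (0.59) was the fourth that rose.

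AT5G40450 fell against D4h too, with 409, 434 and 489 CPM in L4h, against 597, 1342 and 1392 CPM in D4h (log2 change −1.30, SE 0.32, edgeR adjusted p = 0.0312). AT5G49680 (−1.55), AT1G44120 (−0.88), AT3G60965 (−0.75), AT2G45540 (−0.70) and EMB2016 (−0.64) were the other 5. Replicate 1 was the D4h library nearest to L4h for AT5G40450. D4h replicate 1 was the D4h library with a summed leaf marker level near that of L4h. Without it, 6 members were higher and 18 lower, against 15.1% of all genes higher and 9.98% lower. Without D4h replicate 2, D4h replicate 3 or L4h total replicate 2, 0 members were lower, against 3.25%, 3.28% and 3.38% of all genes. Without L4h total replicate 1 or 3, 1 was lower, against 6.06% and 4.15% of all genes. The number higher was 1 without L4h total replicate 3, D4h replicate 2 or D4h replicate 3, against 4.41%, 2.44% and 2.44% of all genes. The call of AT4G30150 held with each of the 6 libraries left out in turn. With D4h replicates 2 and 3 taken as 1 library, 1 member was higher and 0 lower, against 2.43% and 3.29% of all genes. The median change was −0.11 for the members and 0.00 for the other kept genes.

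**Figure D5:**
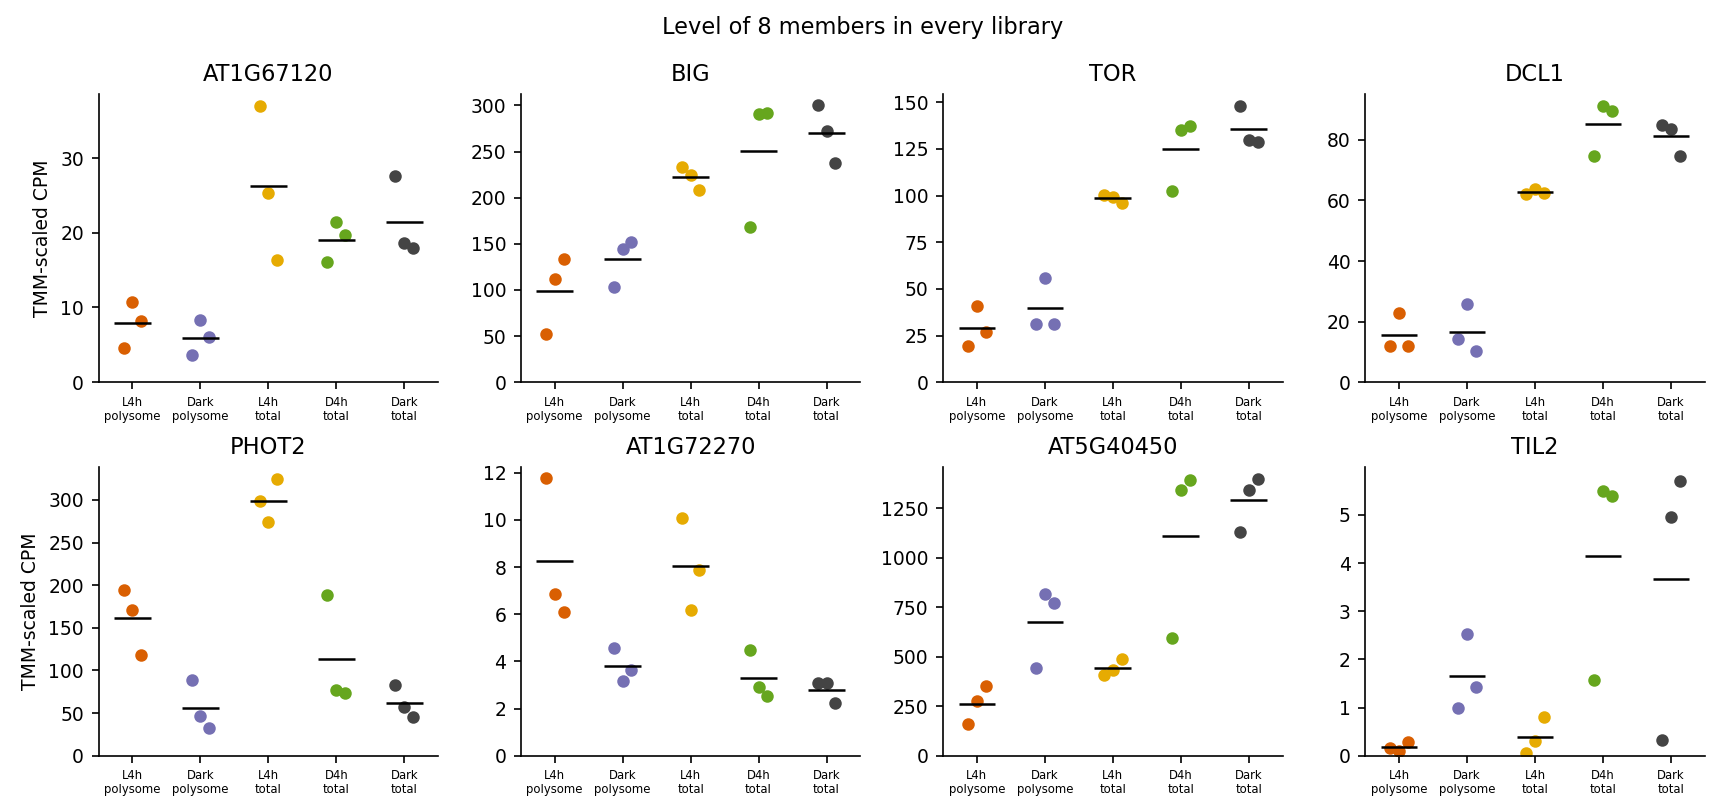
Levels (CPM) of 8 members in every library, by group: AT1G67120, BIG, TOR, DCL1, PHOT2, AT1G72270, AT5G40450 and TIL2. Points are libraries and bars are means (n = 3); AT1G67120, BIG, TOR and DCL1 are lower in polysome-bound than in total RNA, PHOT2 and AT1G72270 are higher in L4h total RNA than in Dark total RNA, and AT5G40450 is lower.

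The light calls fell in several roles. Of all tested genes, 12.3% were higher and 10.0% lower in L4h against Dark in total RNA. Roles hold few members, and their counts were not tested against these shares. Ribosome assembly and translation control had 2 of 5 members higher in this comparison (AT1G72270 and AT4G30150). The 5 had a median of 0.39 and a lowest value of 0.24. Membrane traffic had 3 of 12 lower (median −0.34). None of the 16 members for transcription and chromatin, the 7 for RNA processing or the 4 ubiquitin ligases was called in either direction (medians −0.07, −0.10 and −0.13). TOR had −0.45 in total RNA without passing.

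A further 4 h of darkness changed none of the long transcripts detectably. In D4h against Dark, 0 members were higher and 0 lower, as in 0.0% of all genes tested (edgeR adjusted p under 0.05). At an unadjusted p under 0.05 edgeR gave 0 members and 794 of 21735 genes, and DESeq2 called 0 members. The median change was −0.01 for the members and 0.00 for the other kept genes. Between same-numbered libraries, which the numbers do not pair here, the difference was −0.27, 0.06 and 0.14. Replicate 1 went the other way from replicates 2 and 3.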

How the data were processed

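Read numbers per gene were deposited by the authors as estimated counts (partly fractional, not normalized) beside their RPKM values and gene length in kilobases, with 1 table per library of polysome-bound or total RNA. The build is TAIR 10 per the submitters' processing notes. Which library kit, strandedness, aligner and counter were used is not given in the sources used here. Without strand, reads of overlapping genes cannot be told apart, and reads of near-identical copies may be split between them. Between 84.4% and 87.2% of the genes had whole read numbers (to within 1e-06), and all were rounded before testing. No column lacked a sample.

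Tests were edgeR 4.0.16 quasi-likelihood fits (under R 4.3.3, with TMM factors and a minimum count of 10 in filterByExpr) over all genes, with Benjamini-Hochberg adjustment and a threshold of 0.05. Polysome-bound against total RNA and the interaction were fitted on the 12 L4h and Dark libraries, total RNA on 9 and polysome-bound RNA on 6. Libraries were grouped by their labels. The code was tested on simulated data. Alternatives used DESeq2 1.42.0, limma 3.58.1, RLE scaling, no filter, a replicate block, 1 fit of 15 libraries, other numbers of members and of reads, and each library left out. Python 3.11.15, pandas 2.3.3 and matplotlib 3.10.9 were used. With 3 libraries a group, exact permutations cannot reach a p below 0.1 and were not run.

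The members and lists were chosen with earlier results of these data known, and roles after values were seen, so medians and counts of members carry no test. Named genes are the 10 longest, up to 3 with the largest rise and fall per comparison (past the threshold, groups not overlapping), up to 4 members of each list, the genes around the length threshold and members of one family, and others as examples chosen after their values were seen.

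Replicate numbers pair libraries where the deviations of same-numbered libraries from their group means correlate above 0.1 for all 3. The range was 0.12 to 0.38 for polysome-bound against total RNA in L4h, 0.28 to 0.47 in Dark, 0.39 to 0.60 for L4h against Dark in total RNA and 0.56 to 0.70 in polysome-bound RNA, which are paired. It was −0.27 to 0.30 for L4h against D4h and 0.08 to 0.15 for D4h against Dark, which are not. The main tests used no replicate block, also where libraries are paired. The pairing enters the tests only in the alternative with the block, which called more members in L4h against Dark on polysomes.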

Additional observations from a re-analysis of the deposited data

How the results depend on the processing

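The fall of the long transcripts on polysomes kept its direction under every alternative run. The difference between the members' median and that of the other kept genes ran from −1.40 to −0.95 in L4h, the last with limma on log2(RPKM + 1), and from −1.30 to −0.97 in Dark. With 1 library left out it ran from −1.56 to −1.18 in L4h and from −1.47 to −1.11 in Dark, with 64 to 78 and 58 to 70 members lower. Of all genes, 4.74% to 8.75% were then lower in L4h and 4.54% to 8.82% in Dark. Of the calls, 60 of 81 in L4h and 55 of 74 in Dark held whichever of the 6 libraries was left out. The 50 longest genes gave 41 lower in L4h and 38 in Dark, and the 200 longest 144 and 134. The replicate block gave 1 member higher in each (AT1G47860). The light calls moved far more, and the cause was not tested beyond the settings themselves.

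In L4h against Dark in total RNA (7 higher, 8 lower), DESeq2 gave 12 and 16, no filter on low counts 4 lower, limma on log2(RPKM + 0.1) 13 lower, the replicate block 15 lower, 1 fit of 15 libraries 4 and 4, the 50 longest 2 higher, and the 200 longest 12 and 13. With 1 library left out it gave 3 to 11 higher and 0 to 6 lower. Of all genes, DESeq2 gave 17.1% higher and 15.7% lower, no filter 7.18% lower and limma on log2(RPKM + 0.1) 12.1% lower. The block gave 12.4% of all genes lower, and 1 fit of 15 libraries 10.6% and 8.58%. Leaving 1 library out gave 3.73% to 11.1% higher and 3.93% to 9.59% lower. In polysome-bound RNA (0 higher, 2 lower), DESeq2 gave 2 and 5, limma 0 lower with either pseudocount, the replicate block 6 and 24, 1 fit of 15 libraries 2 and 6, the 50 longest 0 lower, the 200 longest 1 and 4, and a minimum of 500 reads 1 lower. With 1 library left out it gave 0 to 1 higher and 0 to 2 lower. Of all genes, DESeq2 gave 10.2% and 8.87%, and limma 4.54% lower on log2(RPKM + 1) and 4.72% on log2(RPKM + 0.1). The block gave 21.9% and 21.4% of all genes, and 1 fit of 15 libraries 8.98% and 7.81%. Leaving 1 library out gave 1.43% to 7.10% higher and 1.58% to 5.02% lower. In L4h against D4h (4 higher, 6 lower), DESeq2 gave 9 and 13, limma 10 lower on log2(RPKM + 1) and 11 on log2(RPKM + 0.1), the replicate block 12 lower, 1 fit of 15 libraries 2 higher, the 50 longest 1 higher, and the 200 longest 7 and 10. With 1 library left out it gave 1 to 6 higher and 0 to 18 lower. Of all genes, DESeq2 gave 12.2% and 11.9%, and limma 9.34% lower on log2(RPKM + 1) and 9.63% on log2(RPKM + 0.1). The block gave 9.54% of all genes lower, and 1 fit of 15 libraries 5.81% higher. Leaving 1 library out gave 2.44% to 15.1% higher and 3.25% to 9.98% lower. Chosen after seeing the data, leaving out the libraries numbered 1 gave 17 and 25 in L4h against Dark in total RNA, 1 and 4 in polysome-bound RNA and 13 and 32 in L4h against D4h, and D4h replicates 2 and 3 as 1 library gave 1 and 0. In the same order, the shares of all genes were 24.0% and 24.2%, 9.59% and 6.50%, 24.4% and 22.7%, and 2.43% and 3.29%.

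Over all genes, polysome-bound against total RNA gave 2546 higher and 1985 lower in L4h and 2307 and 2034 in Dark. The replicate block gave 3845 and 3344 in L4h and 3655 and 3436 in Dark, limma on log2(RPKM + 1) 1638 and 3235 in L4h, and limma on log2(RPKM + 0.1) 1577 and 3016 in L4h and 1497 higher in Dark. L4h against Dark on polysomes gave 1124 and 1037, with 4584 and 4481 under the block, 2145 and 1861 with DESeq2, 1981 and 1723 in 1 fit of 15 libraries and 2045 higher without the libraries numbered 1. L4h against Dark in total RNA gave 2666 and 2173, with 3408 lower by DESeq2 and 5240 and 5276 without the libraries numbered 1. L4h against D4h gave 1465 and 1586, with 2658 and 2590 by DESeq2, 2256 higher under the block, 5318 and 4940 without the libraries numbered 1, and 539 and 728 with D4h replicates 2 and 3 as 1 library. Replicate numbers do not pair the D4h libraries. DESeq2 gave 2 and 1 for the interaction and 5 and 10 for D4h against Dark, where edgeR gave 0. With 1 library left out, the counts ran from 1395 to 2268 higher and 1053 to 1948 lower in L4h and from 1226 to 2343 and 1007 to 1959 in Dark.

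Of 111 calls of named genes under 1562 alternative values, 1383 kept their call, 179 missed the threshold in the same direction and 0 reversed. The block moved no other count of members in polysome-bound against total RNA by over 1.5 times. Mean reads per member had a median of 5094, with 191 for TIL2 and 115 for AT3G28770, and how depth bears on the calls was not tested.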
